A study of Mus musculus with 4 samples.

Results

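The genes Tcf7, Lef1, Klf2, Il7r, S1pr1, Igfbp4 and Dapl1, which mark naive and memory T cells, were followed in tumour-infiltrating T cells across 4 single-cell RNA libraries. They are 7 of the 33696 genes in the count tables, and they were picked because their unique molecular identifier (UMI) counts were seen to differ between T cells and other cells and between the treatment groups. Their levels are therefore a description, and no test was run on them. T cells were cells with UMIs of 2 or more of the 5 genes Cd3d, Cd3e, Cd3g, Trac and Trbc2, which encode parts of the T cell receptor complex. CD8 cells also had a UMI of Cd8a or Cd8b1 and none of Cd4, and CD4 cells had the reverse. This gave 1884 CD8 and 833 CD4 cells among 51841 cells within the quality limits, of 55090 deposited.

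The libraries came from live CD45+ cells sorted from subcutaneous tumours of KPC cells, a pancreatic cancer line taken from genetically engineered mice that carry Pdx1-Cre and Trp53 LSL.R172H/+ among their alleles, grown in male C57BL/6 mice. Mice were left untreated, received ADU-S100, a STING agonist, as a single injection into the tumour, received repeated intraperitoneal doses of the LTβR agonist antibody 4H8 (LTbR agonist in the labels), or received both, which is called the combination here. STING is the sensor adaptor of cytosolic DNA that drives type I interferon, and LTβR is the lymphotoxin-β receptor. All mice bore the same transplanted line, and the tumours of a group were pooled before sorting, so each group is 1 library with no replicate, and a difference between groups cannot be told apart from a difference between libraries. The route of injection also differed between the agonists, and the control group was not labelled as given a vehicle.

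Naive T cells recirculate between blood and lymph nodes and are kept quiescent by a small set of transcription factors. TCF-1, encoded by Tcf7, and LEF-1 are the nuclear partners of β-catenin that sustain naive, central memory and stem-like T cells, and both are lost as effector cells differentiate. KLF2 keeps T cells quiescent and drives transcription of S1pr1, the sphingosine-1-phosphate receptor with which lymphocytes leave tissue for blood and lymph. Il7r encodes the α chain of the receptor for interleukin-7, the survival cytokine of resting T cells. Igfbp4, an insulin-like growth factor binding protein, and Dapl1, a death-associated protein homologue, are used as markers of naive and resting T cells in mice.

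The genes lie on 5 chromosomes of the mouse genome, and all 7 are protein coding (GENCODE M21, GRCm38). Tcf7 (ENSMUSG00000000782) spans chr11:52252371-52283014 on the minus strand, and Igfbp4 (ENSMUSG00000017493) spans chr11:99041244-99054392 on the plus strand. Lef1 (ENSMUSG00000027985) spans chr3:131110471-131224356 on the plus strand, and S1pr1 (ENSMUSG00000045092) spans chr3:115710433-115715072 on the minus strand. Klf2 (ENSMUSG00000055148) spans chr8:72319033-72321656 on the plus strand. Il7r (ENSMUSG00000003882) spans chr15:9505788-9530176 on the minus strand. Dapl1 (ENSMUSG00000026989) spans chr2:59484653-59505020 on the plus strand.

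Because the factors among the 7 bind known DNA words, the sequences around the members' RefSeq start sites (GRCm38.p6) were searched on both strands for CTTTGA (TCF and LEF factors), GTAAACA (FOXO factors, which act upstream of Klf2 and Il7r) and CACACCC (KLF factors). Each window holds 250 bases before and 50 bases from the start. Windows were found for 6 of the 7 genes, 10 in all, and S1pr1 had none in the table. The 4 windows with a match are shown 5′ to 3′ on the gene's strand, with the matched words in capitals. The matches on the opposite strand read TCAAAG and GGGTGTG.
Tcf7, chr11:52282546-52282845, minus strand: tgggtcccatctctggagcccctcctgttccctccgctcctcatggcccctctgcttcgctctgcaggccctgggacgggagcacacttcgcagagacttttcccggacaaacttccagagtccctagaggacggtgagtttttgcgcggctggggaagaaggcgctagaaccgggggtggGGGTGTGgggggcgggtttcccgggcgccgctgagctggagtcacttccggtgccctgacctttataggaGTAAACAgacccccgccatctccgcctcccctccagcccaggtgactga
Lef1, chr3:131156044-131156343, plus strand: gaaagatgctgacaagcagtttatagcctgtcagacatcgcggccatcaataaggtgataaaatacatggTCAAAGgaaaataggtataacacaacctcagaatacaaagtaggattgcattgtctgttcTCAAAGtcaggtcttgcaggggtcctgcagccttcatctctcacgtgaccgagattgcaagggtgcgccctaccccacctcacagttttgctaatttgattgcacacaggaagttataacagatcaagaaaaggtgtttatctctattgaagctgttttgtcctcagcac
Igfbp4, chr11:99040994-99041293, plus strand: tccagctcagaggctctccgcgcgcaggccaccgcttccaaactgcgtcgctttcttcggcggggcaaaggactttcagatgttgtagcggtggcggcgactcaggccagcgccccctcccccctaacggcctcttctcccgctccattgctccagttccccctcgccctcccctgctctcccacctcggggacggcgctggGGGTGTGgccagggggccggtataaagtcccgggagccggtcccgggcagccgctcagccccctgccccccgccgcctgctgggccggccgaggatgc
Dapl1, chr2:59484403-59484702, plus strand: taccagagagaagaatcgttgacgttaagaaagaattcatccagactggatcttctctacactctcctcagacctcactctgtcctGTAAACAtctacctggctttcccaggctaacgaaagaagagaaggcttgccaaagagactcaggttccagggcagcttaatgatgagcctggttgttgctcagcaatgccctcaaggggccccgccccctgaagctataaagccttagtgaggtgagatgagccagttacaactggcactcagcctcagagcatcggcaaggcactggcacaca

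The Lef1 window, which belongs to a start inside the gene, held the TCF/LEF word at -180 and at -120, counted from the first transcribed base as +1. The Tcf7 window, also of a start inside the gene, held the KLF word at -69 and the FOXO word at +2. Igfbp4 held the KLF word at -48, and Dapl1 held the FOXO word at -164. The windows at the outermost starts of Tcf7 and Lef1, and those of Il7r and Klf2, held none of these words. Of all 32851 windows, 16% held the TCF/LEF word, 3.65% the FOXO word and 7.95% the KLF word, against 1, 2 and 2 of the 10 windows of the members. No matches overlapped each other, and a match is a run of letters, not a bound site.

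Levels are given as CPM, the UMIs of a gene for each 1000000 UMIs summed over the cells of a class in 1 library, and sets of 4 values follow the order untreated, STING agonist, LTbR agonist and combination. Intervals are exact 95% intervals of counting error and say nothing of variation between mice or libraries. Those of CPM and of ratios take UMIs as independent, though 1 cell can hold several UMIs of a gene. CD8 cells numbered 477, 191, 628 and 588, and CD4 cells 243, 106, 341 and 143. The median CD8 cell held 5074, 4717, 3760 and 2261.5 UMIs, so the combination was the shallowest. The deposited libraries held 52109958 to 85855398 UMIs and shared 34 to 83 cell barcodes with each other. Other features of the cells moved with the groups, and their part in the results was not tested. Cycling cells (a UMI of Mki67 or Top2a) were 39.4, 27.7, 22.5 and 21.9% of CD8 cells, and regulatory T cells (a Foxp3 UMI) were 35.0, 28.3, 15.5 and 11.9% of CD4 cells. Results are therefore also given without them.

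The transcription factors Tcf7, Lef1 and Klf2 were higher in CD8 cells of all 3 treated libraries than in those of the untreated library. Tcf7 stood at 87.6 CPM in untreated CD8 cells (236 UMIs) and at 228, 328 and 318 CPM in the treated libraries (234, 871 and 479 UMIs). The log2 ratio to untreated was 1.38 with the STING agonist (1.11 to 1.64), 1.90 with the LTbR agonist (1.70 to 2.12) and 1.86 with the combination (1.63 to 2.09). In CPM the LTbR and combination libraries were alike and both lay above the STING library, whose interval of 199 to 259 CPM did not overlap theirs. At equal depth per cell, the intervals of the shares of CD8 cells with a Tcf7 UMI, given below, overlapped between the treated libraries. Lef1 stood at 95.1, 188, 308 and 358 CPM in CD8 cells. Over untreated, on the log2 scale, the agonists stood at 0.98 (0.71 to 1.26) and 1.70 (1.49 to 1.91) and the combination at 1.91 (1.70 to 2.13), so the STING library again lay between untreated and the other two. Klf2 took another pattern, at 46.0 CPM in untreated CD8 cells and 202, 201 and 206 CPM in the treated libraries. The 3 treated libraries did not differ beyond counting error in Klf2, with log2 ratios against untreated at 2.13 (1.81 to 2.47), 2.12 (1.84 to 2.42) and 2.16 (1.85 to 2.47).

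The receptors Il7r and S1pr1 were also higher in treated CD8 cells, but Il7r was highest with the STING agonist alone. It stood at 236, 605, 400 and 417 CPM, and against untreated the log2 ratio was 1.36 (1.20 to 1.52), 0.76 (0.62 to 0.91) and 0.82 (0.66 to 0.98). The interval of the STING library, 559 to 655 CPM, lay above those of the other 3 libraries. S1pr1 stood at 23.8, 64.2, 84.1 and 90.2 CPM on 64 to 223 UMIs. Its log2 ratios were 1.43 (0.92 to 1.95), 1.81 (1.42 to 2.25) and 1.92 (1.49 to 2.38), and the intervals of the 3 treated libraries overlapped.

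Igfbp4 and Dapl1 were the rarest of the 7 in CD8 cells, and in CPM both stood higher in the libraries with the LTbR agonist than in those without it. Igfbp4 stood at 11.5, 14.6, 38.1 and 71.0 CPM in CD8 cells on 31, 15, 101 and 107 UMIs. Against untreated its log2 ratio was 1.71 with the LTbR agonist (1.13 to 2.36) and 2.61 with the combination (2.04 to 3.25), whereas with the STING agonist it was 0.37 (-0.65 to 1.28). The STING value rested on 1 cell that held 80% of the gene's 15 UMIs, and without the top cell of each library the log2 ratio was -1.23. The summed level of the 8 non-leukocyte marker genes in CD8 cells, 42.0, 50.6, 83.0 and 105.5 CPM with UMIs of 7, 4, 7 and 7 of the 8, was ordered as Igfbp4 was, and since Igfbp4 is itself high in non-leukocytes, their part in its level was not tested. Dapl1 stood at 12.6, 17.5, 50.1 and 53.1 CPM, with log2 ratios of 0.49 (-0.44 to 1.34), 1.97 (1.44 to 2.58) and 2.06 (1.48 to 2.70).

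**Figure D1:**
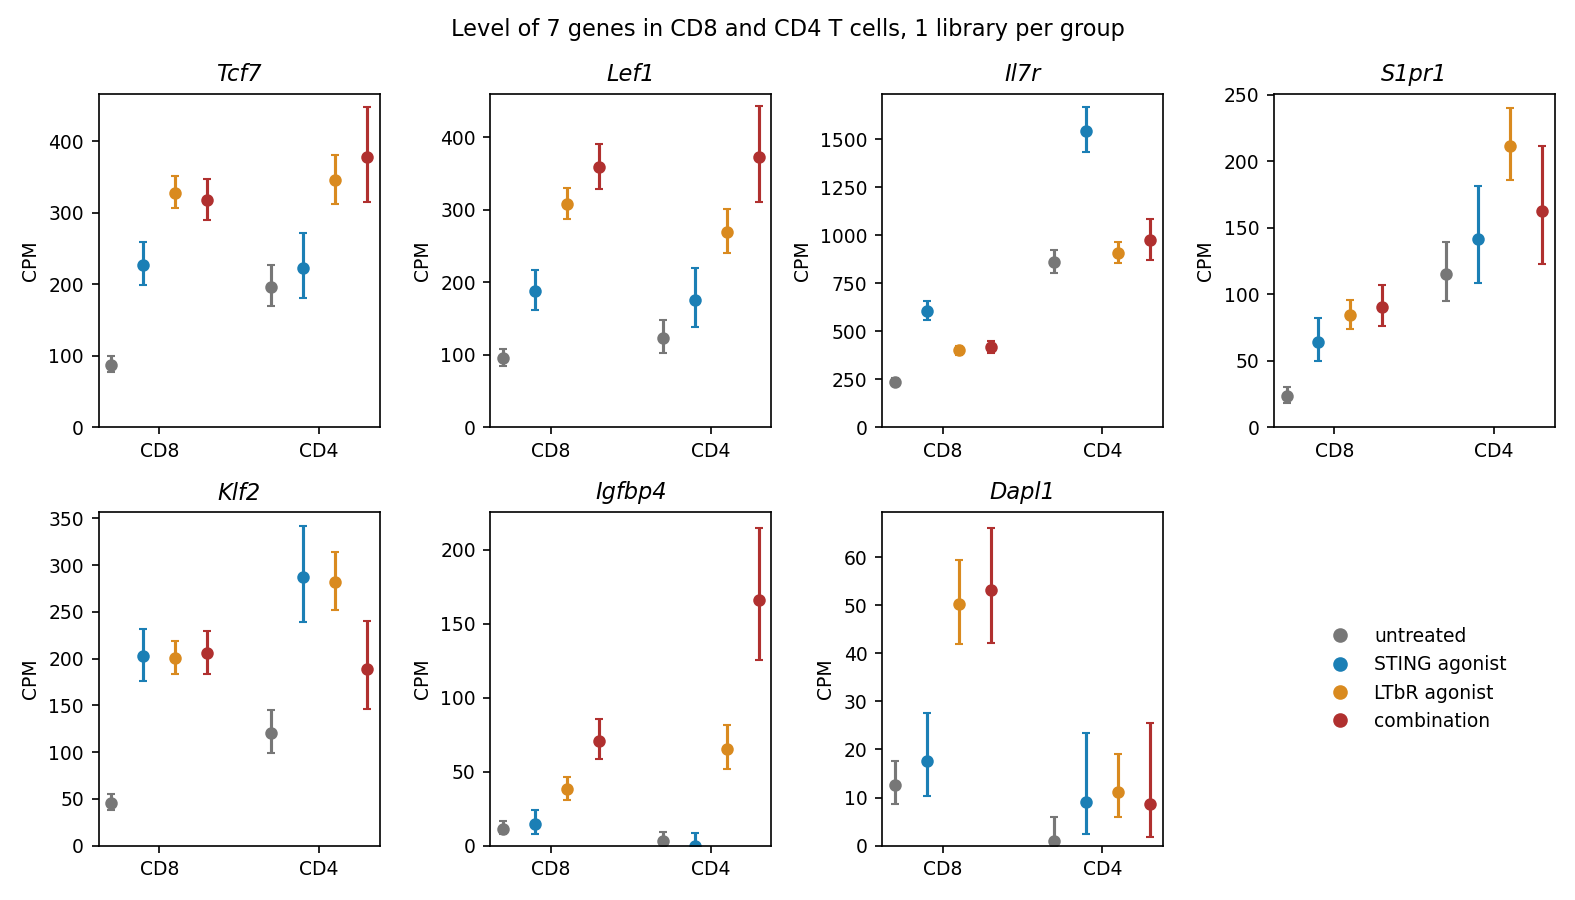
Level of each of the 7 genes (CPM, linear axis from 0) in CD8 and CD4 cells, with 1 point for each library and bars for the exact Poisson 95% interval of counting error. In CD8 cells the untreated library is the lowest for every gene, at 87.6 CPM for Tcf7 against 228 to 328 CPM, and in CD4 cells Igfbp4 is at 0 to 3.17 CPM without and 65.4 to 166 CPM with the LTbR agonist.

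Summed over the 7 genes, CD8 cells held 512, 1319, 1410 and 1513 CPM, and the log2 ratio to untreated was 1.36 (1.26 to 1.47), 1.46 (1.37 to 1.55) and 1.56 (1.46 to 1.66). Il7r made up 46.0, 45.9, 28.4 and 27.5% of the summed UMIs. Without Il7r, a sum taken after the values had been seen, the other 6 genes held 277, 714, 1010 and 1096 CPM, at log2 ratios of 1.37 (1.22 to 1.52), 1.87 (1.75 to 1.99) and 1.99 (1.86 to 2.11). A gene was counted as at least 2-fold higher where its interval also excluded 0 and the 2 libraries held 50 or more of its UMIs. This held for 4 of the 7 in the STING library, namely Tcf7, Il7r, S1pr1 and Klf2, against a background of 1.8% of all 7816 genes over that limit. It held for 6 of the 7 in the LTbR library (background 2.61%) and for 6 of the 7 in the combination (background 2.11%), with Il7r the gene outside both counts. None of the 7 was 2-fold lower, which 2.34, 1.2 and 1.29% of all genes were. The shares of all genes count only genes over the UMI limit, which 6, 7 and 7 of the 7 were. The median log2 ratio of all genes was -0.06, 0.00 and -0.04. Since the genes were picked on this contrast, nothing further is read from the counts. Without cycling cells the log2 ratios of the summed genes were 1.19, 1.25 and 1.22.

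In CD4 cells, which start from a higher level, the same 3 transcription factors and 2 receptors differed less between libraries. Tcf7 stood at 197, 223, 346 and 378 CPM, and against untreated the log2 ratio was 0.19 (-0.18 to 0.54), 0.81 (0.56 to 1.07) and 0.94 (0.61 to 1.27). The STING library did not differ from untreated beyond counting error in Tcf7. Lef1 stood at 124, 175, 269 and 372 CPM, with log2 ratios of 0.51 (0.07 to 0.93), 1.12 (0.81 to 1.44) and 1.59 (1.22 to 1.96). Klf2 was at 120, 287, 282 and 189 CPM, with log2 ratios of 1.25 (0.88 to 1.63), 1.22 (0.92 to 1.55) and 0.65 (0.19 to 1.10), so it was lower in the combination than with either agonist alone. Il7r stood at 861, 1544, 907 and 973 CPM, and as in CD8 cells the STING library was the highest, at a log2 ratio of 0.84 (0.69 to 0.99). The LTbR and combination libraries were within counting error of untreated, at 0.08 (-0.06 to 0.21) and 0.18 (-0.01 to 0.36). S1pr1 stood at 115, 141, 212 and 163 CPM on 56 to 246 UMIs, with log2 ratios of 0.30 (-0.18 to 0.76), 0.87 (0.55 to 1.22) and 0.51 (0.01 to 0.98).

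In CD4 cells Igfbp4 was found as 3 UMIs in the untreated library, 0 in the STING library, 76 with the LTbR agonist and 57 with the combination, which is 3.17, 0, 65.4 and 166 CPM. The untreated UMIs came from 2 of 243 cells, those of the LTbR library from 18 of 341 and those of the combination from 17 of 143. The log2 ratio to untreated was 4.15 with the LTbR agonist (2.76 to 6.68) and 5.50 with the combination (4.09 to 8.03), and the combination was 1.34 above the LTbR agonist (0.82 to 1.86). Against the 6.83 CPM that 3 UMIs would have given in the STING library, the combination was 24.2-fold higher. The exact interval of the log2 ratio to the STING library's 0 UMIs began at 4.25. The non-leukocyte genes summed to 179, 205, 210 and 221 CPM in CD4 cells, and their part in Igfbp4 was not tested. Dapl1 had 1, 4, 13 and 3 UMIs in CD4 cells, too few to compare.

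**Figure D2:**
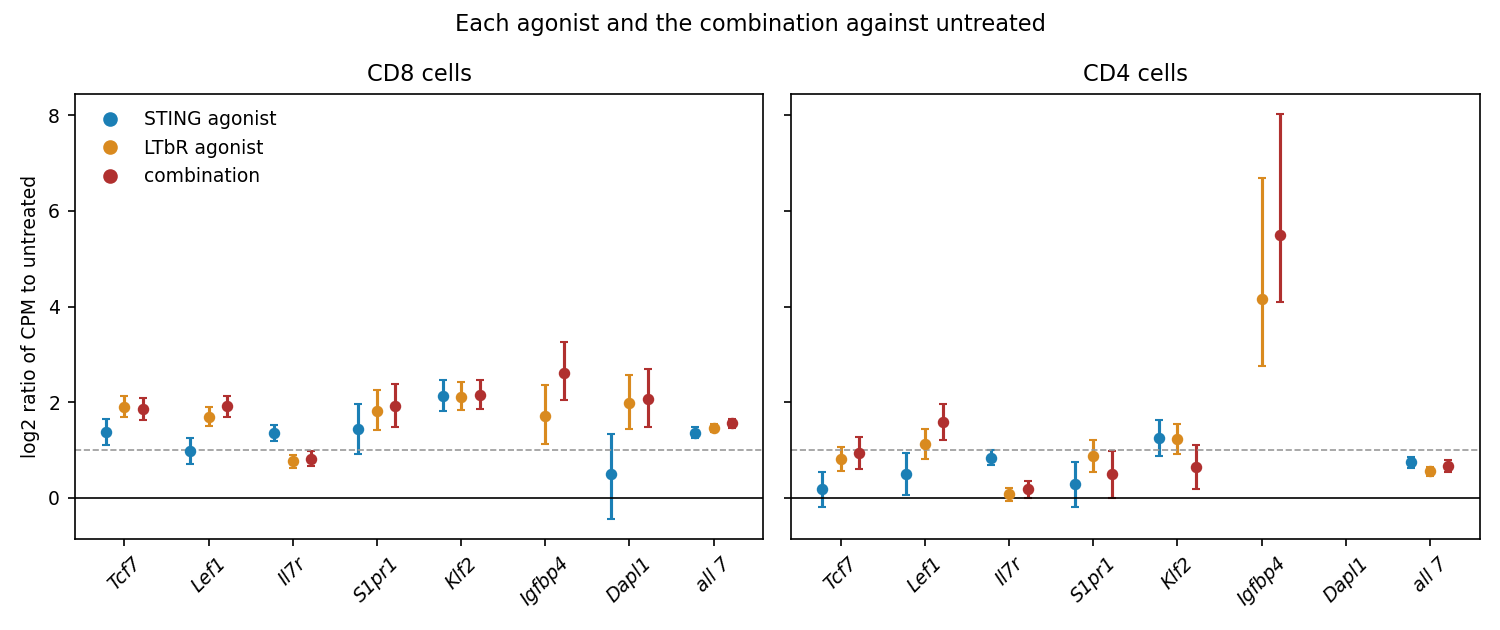
Log2 ratio of CPM to untreated for each gene and for the sum of all 7, in CD8 cells (left) and CD4 cells (right), with bars for the exact binomial 95% interval and a dashed line at 2-fold. Genes with fewer than 50 UMIs over both libraries are left out (Igfbp4 with the STING agonist and Dapl1 in CD4 cells). All 7 genes of the combination lie above 0 in CD8 cells, from 0.82 for Il7r to 2.61 for Igfbp4, and Igfbp4 reaches 5.50 in CD4 cells.

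The sum of the 7 genes in CD4 cells was 1421, 2380, 2092 and 2249 CPM, at log2 ratios of 0.74 (0.63 to 0.86), 0.56 (0.46 to 0.66) and 0.66 (0.53 to 0.79). Il7r made up 60.6, 64.9, 43.4 and 43.3% of these UMIs, and the order of the treated libraries differed without it. The other 6 genes summed to 560, 836, 1185 and 1276 CPM, at log2 ratios of 0.58 (0.38 to 0.77), 1.08 (0.94 to 1.23) and 1.19 (1.00 to 1.37). At least 2-fold higher than untreated were 1 of 7 in the STING library (Klf2, background 1.04%), 3 of 7 in the LTbR library (Lef1, Klf2 and Igfbp4, background 1.48%) and 2 of 7 in the combination (Lef1 and Igfbp4, background 1.61%). Over the UMI limit were 5, 6 and 6 of the 7 genes. None of the 7 was 2-fold lower, against 2.4, 1.13 and 2.31% of all genes. On sums of cells thinned to 1000 UMIs the counts were 1, 1 and 1 of 7, and they lay between 1 and 2, 1 and 4 and 1 and 3 over all other settings. Values with and without Foxp3+ cells follow, since the share of these cells differed between libraries, and their part in the differences was not tested. In Foxp3+ CD4 cells Tcf7 had 4, 1, 10 and 0 UMIs, and neither Igfbp4 nor Dapl1 had any in 85, 30, 53 and 17 cells. In CD4 cells without a Foxp3 UMI, Tcf7 stood at 329, 344, 419 and 435 CPM, and its log2 ratios to untreated were 0.07, 0.35 and 0.40 in place of 0.19, 0.81 and 0.94. The ratios of Lef1, at 0.50, 1.08 and 1.49, and of Igfbp4, at 3.69 and 4.93 for the LTbR agonist and the combination, were close to those of all CD4 cells. Without Foxp3+ cells S1pr1 was at 0.19, 0.43 and 0.01, Il7r at 0.94, -0.21 and -0.03, Klf2 at 1.04, 1.11 and 0.42, and the sum of the 7 at 0.73, 0.30 and 0.40.

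The combination was next set against each agonist alone, which asks whether adding the second agent goes with a further difference in these genes. In CD8 cells, Igfbp4 was higher in the combination than in the STING library by 2.24 on the log2 scale (1.5 to 3.17) and Dapl1 by 1.57 (0.85 to 2.43). Lef1 differed by 0.93 (0.69 to 1.18), Tcf7 by 0.48 (0.25 to 0.71) and S1pr1 by 0.49 (0.06 to 0.94), whereas Klf2 was level at 0.02 (-0.23 to 0.28). Il7r was lower in the combination, at -0.54 (-0.70 to -0.38). Of the 7 genes, 2 were at least 2-fold higher than in the STING library (background 1.69%) and 0 lower (0.807%). On sums of cells thinned to 1000 UMIs, S1pr1 turned to -0.41, 0 genes were counted as 2-fold higher and the difference in the sum of the 7 was 0.0010, and with a limit of 200 UMIs 0 genes were counted as well. Against the LTbR library, Igfbp4 was higher by 0.90 (0.49 to 1.31) and Lef1 by 0.22 (0.06 to 0.37), and the intervals of the other 5 genes included 0. None of the 7 was 2-fold higher or lower than in the LTbR library (background 0.551% higher and 0.613% lower). The sum of the 7 genes differed by 0.20 (0.10 to 0.30) from the STING library and by 0.10 (0.03 to 0.18) from the LTbR library, and the second of these changed sign under some of the other settings given in the closing section. Without Il7r the differences were 0.62 (0.49 to 0.75) and 0.12 (0.03 to 0.21).

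In CD4 cells the combination stood above the STING library in Lef1, by 1.08 (0.67 to 1.51), and in Igfbp4, and these made 2 of 7 genes at 2-fold or more (background 2.36%). Il7r was lower by -0.66 (-0.86 to -0.47) and Klf2 by -0.60 (-1.06 to -0.16). Against the LTbR library, Igfbp4 was the 1 gene of the 7 at 2-fold or more (background 0.888%). Klf2 was lower in the combination than in the LTbR library, at -0.57 (-0.99 to -0.19), and Lef1 was higher by 0.47 (0.16 to 0.77). No member was 2-fold lower than with the STING agonist (background 2.49%) or the LTbR agonist (1.62%). In each comparison 6 of the 7 genes were over the UMI limit. The count of 2 genes above the STING library was 1 or 0 under 8 of the other settings, and the single gene above the LTbR library was lost with a limit of 200 UMIs.

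To give the share of cells in which a gene was found, every cell was thinned to 1000 UMIs and cells with at least 1 UMI were counted. Tcf7 was then found in 7.38, 20.2, 23.7 and 23.1% of CD8 cells. The intervals of the treated libraries, 14.7 to 26.7, 20.4 to 27.3 and 19.6 to 26.8%, overlapped, and that of the untreated library, 5.20 to 10.1%, lay below them. Without thinning, the shares were 15.7, 38.7, 42.8 and 32.5%. At the same thinned depth, Tcf7 was found in 0 to 0.262% of B and plasma cells, which lack the gene and give the level of free RNA. Its shares of 0 in the untreated and STING libraries rest on 51 and 41 such cells and allow up to 6.98 and 8.60% (Clopper-Pearson), so this level is poorly bounded there for each gene read in these cells. Lef1 was found in 8.44, 14.9, 22.3 and 23.8% of CD8 cells, against 0 to 1.44% of B and plasma cells. Klf2 was found in 5.27, 13.3, 15.7 and 14.4% of CD8 cells. No class was free of Klf2 in all libraries, so a free RNA level could not be set for it.

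Il7r was found in 18.1, 38.8, 30.0 and 27.9% of thinned CD8 cells, against 0 to 0.785% of B and plasma cells. Its interval in the STING library, 31.8 to 46.2%, overlapped that of the LTbR library, 26.5 to 33.8%. S1pr1 was found in 2.95, 10.1, 8.40 and 7.01%, against 0 to 0.364% of neutrophils. For Igfbp4 the CD8 shares were 0.422% (0.0511 to 1.52%), 1.06% (0.129 to 3.79%), 3.23% (1.98 to 4.95%) and 5.35% (3.61 to 7.59%), against 0 to 0.262% of B and plasma cells, so those of the untreated and STING libraries do not stand clear of free RNA. Dapl1 was found in 1.27, 2.66, 4.85 and 4.06% of CD8 cells, against 0 to 0.0272% of cells without a T cell receptor gene. Not thinned, the Igfbp4 UMIs came from 7, 4, 41 and 45 CD8 cells.

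The genes were next placed among the cell classes of the tumours, using fixed marker lists, and ordered over 14 classes. CD4 cells count there both whole and without Foxp3+ cells. Left out are gamma-delta, Foxp3+ CD4 and Cd4 with Cd8 T cells, mast cells and basophils, and cells that no list could place. Tcf7 and Lef1 were largely genes of T, NK and innate lymphoid cells, and S1pr1 was largely a gene of T cells. The mean Tcf7 level over the 4 libraries was 495 CPM in T cells with neither a Cd4 nor a Cd8 UMI (407 to 612), 382 CPM in CD4 cells without Foxp3 (329 to 435), 291 CPM in NK cells (256 to 304) and 240 CPM in CD8 cells (87.6 to 328). The ranges of the first and second overlapped, as did those of NK and CD8 cells. Group 2 innate lymphoid cells (ILC2) followed at 91.5 CPM (75.0 to 106) and mature dendritic cells at 72.5 CPM (43.7 to 116). Each of the other ordered classes outside the T cells had at most 18.5 CPM in any library. Unplaced cells, outside this order, had 45.8, 24.4, 67.5 and 78.6 CPM. Lef1 took a like order, from 398 CPM in T cells without Cd4 or Cd8 through 269 CPM in CD4 cells without Foxp3 and 237 CPM in CD8 cells. ILC2 had 181 CPM and NK cells 164 CPM, and the other ordered classes outside the T cells had at most 15.2 CPM. Outside this order, Foxp3+ CD4 cells had 91.5, 121, 96.5 and 111 CPM of Lef1 and unplaced cells 120, 96.8, 150 and 130 CPM. S1pr1 was highest in CD4 cells without Foxp3, at 203 CPM (181 to 245), then in T cells without Cd4 or Cd8 at 143 CPM and in CD8 cells at 65.6 CPM, with no UMI in plasmacytoid dendritic cells. Its ranges overlapped in NK cells (16.1 to 30.2 CPM), ILC2 (0 to 44.9 CPM) and B and plasma cells (3.51 to 28.3 CPM).

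Il7r had a wider range of sources. Among the 14 classes it was highest in CD4 cells without Foxp3, at a mean of 1255 CPM (911 to 2026), and ILC2 overlapped them at 972 CPM (857 to 1091). Plasmacytoid and mature dendritic cells had 522 and 514 CPM, above the mean of CD8 cells, 414 CPM. Foxp3+ CD4 cells held 590, 680, 890 and 598 CPM of Il7r, and gamma-delta T cells, at 9 to 36 cells a library, held 1512, 1829, 860 and 867 CPM. Klf2 was highest outside the T cells, in neutrophils at 454 CPM (390 to 501), and no class had a mean under 49.0 CPM. Igfbp4 was highest in the non-leukocytes left in the sort (118, 117, 159 and 188 cells), at 615 CPM (540 to 693), above each T cell class in every library. Dapl1 was the most restricted of the 7, with a mean of 33.3 CPM in CD8 cells, 19.9 CPM in T cells without Cd4 or Cd8 and no UMI in NK, ILC2, B, plasmacytoid, conventional dendritic or non-leukocyte cells.

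**Figure D3:**
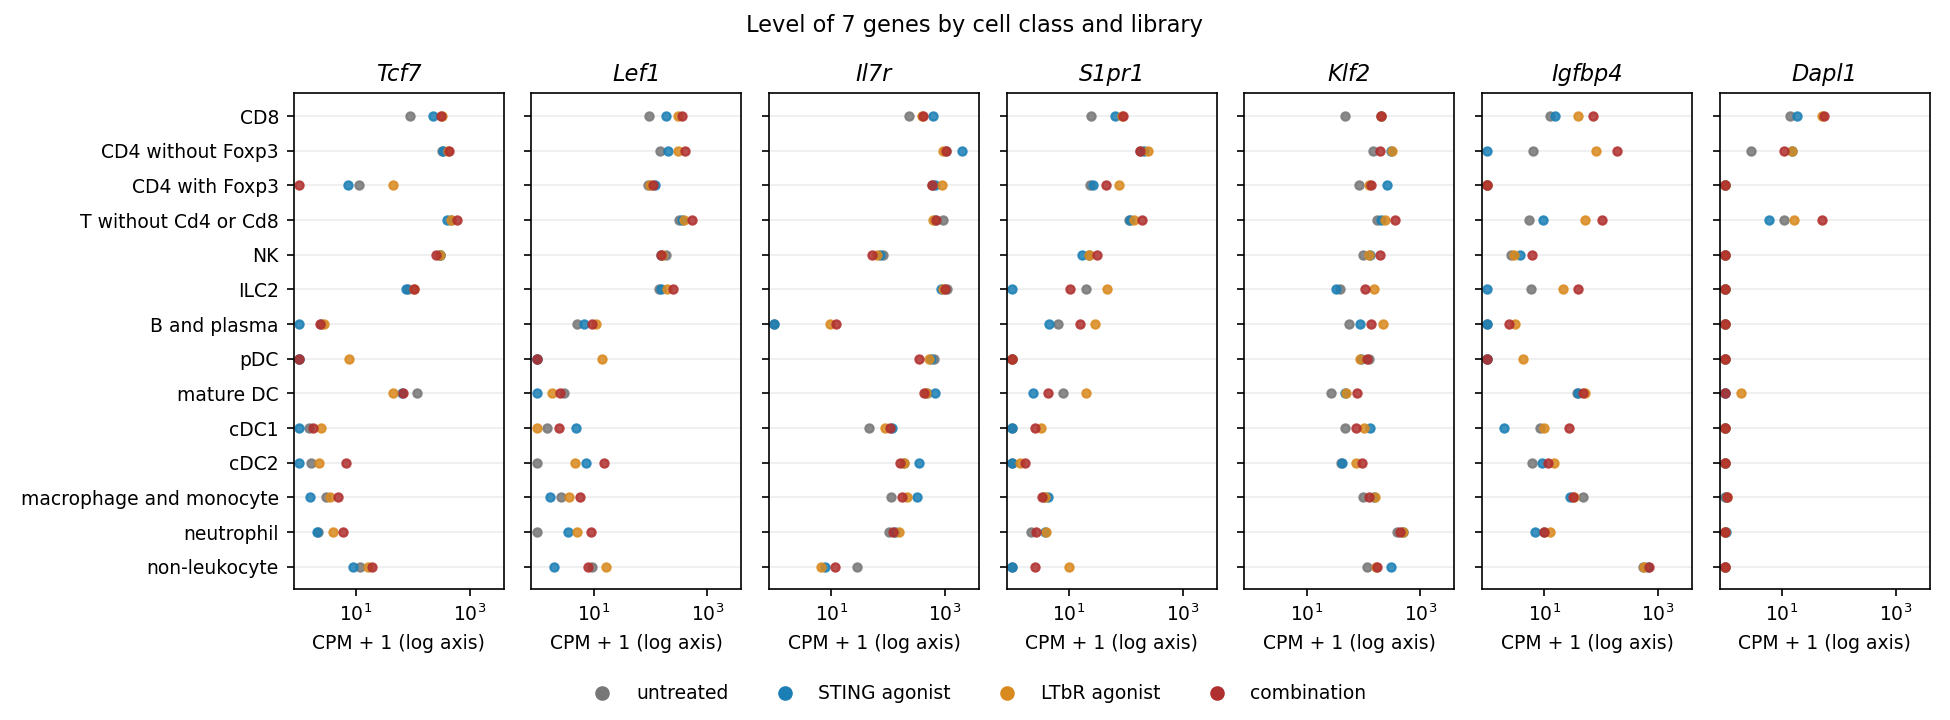
Level of the 7 genes (CPM + 1, log axis) in 14 marker-defined cell classes, with CD4 cells split by Foxp3 and 1 point for each library. Tcf7 and Lef1 are high in T, NK and ILC2 cells, Klf2 is spread over all classes with neutrophils highest at 390 to 501 CPM, Igfbp4 is highest in non-leukocytes at 540 to 693 CPM, and Dapl1 is almost confined to T cells.

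Within each library, CD8 and CD4 cells were compared with the 6138, 13338, 11373 and 13685 cells that had no UMI of the 5 T cell receptor genes. In CD8 cells the mean log2 ratio over the 4 libraries was 4.38 ± 1.07 (SD, n = 4) for Tcf7, 4.51 ± 0.73 for Lef1, 3.91 ± 0.71 for S1pr1 and 1.13 ± 0.23 for Il7r. In CD4 cells it was 4.75 ± 0.55 for Tcf7, 4.55 ± 0.51 for Lef1, 5.31 ± 0.13 for S1pr1 and 2.54 ± 0.21 for Il7r. All of these were above 0 in 4 of 4 libraries. Dapl1 had 0, 1, 4 and 9 UMIs in the cells without T cell receptor genes. In the untreated library, with 3 UMIs over those cells in place of 0, CD8 cells were 162-fold higher. The exact interval of the log2 ratio there began at 6.96. Klf2 and Igfbp4 did not separate CD8 cells from other cells in one direction. The mix of the other cells differed between libraries, with neutrophils at 8.11, 42.4, 10.3 and 13% of all cells within limits, and its part in these ratios was not tested. For Klf2 the log2 ratio of CD8 to the other cells was -1.12, -0.22, 0.24 and 0.47, and for Igfbp4 it was -2.17, -0.96, -0.10 and 0.68. The sum of the 7 genes had log2 ratios of 0.74, 1.26, 1.71 and 2.01 in CD8 cells and 2.21, 2.11, 2.28 and 2.58 in CD4 cells.

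Cells outside the CD8 and CD4 classes were read for whether the difference from untreated was shared. In NK cells Tcf7 stood at 304, 300, 304 and 256 CPM and Lef1 at 190, 152, 161 and 153 CPM. The sum of the 7 genes in NK cells differed from untreated by -0.05, -0.04 and 0.00 on the log2 scale. T cells with neither Cd4 nor Cd8 had Tcf7 at 480, 407, 479 and 612 CPM and differed by -0.18, -0.05 and 0.35 in the sum, but their Igfbp4 followed the CD4 cells, at 4.48, 8.55, 50.9 and 104 CPM on 5, 7, 104 and 77 UMIs. Il7r and Klf2 differed outside T cells as well. In macrophages and monocytes Il7r stood at 113, 328, 211 and 173 CPM, so the STING library was the highest there too, and Klf2 at 96.3, 151, 156 and 124 CPM. In neutrophils Il7r stood at 102, 134, 156 and 120 CPM and Klf2 at 390, 501, 490 and 433 CPM.

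Other marker lists read in the CD8 cells were as follows. The summed level of 10 macrophage and monocyte genes in CD8 cells was 312, 640, 783 and 641 CPM, of which Ly6c2, also a gene of memory CD8 cells, was 267, 589, 740 and 526 CPM. The summed level of 8 B and plasma cell genes was 5.94, 6.81, 12.4 and 10.6 CPM, with UMIs of 3, 3, 6 and 6 of the 8, and that of 7 NK genes, 2 of which CD8 cells also use (Eomes and Gzma), was 381, 807, 598 and 582 CPM. In CD4 cells the macrophage and monocyte genes summed to 123, 121, 104 and 157 CPM and the B and plasma cell genes to 11.6, 6.83, 6.02 and 32.0 CPM. The 8 neutrophil genes, which include Il1r2, also a gene of regulatory T cells, summed to 488, 558, 504 and 721 CPM in CD4 cells, with UMIs of 4, 8, 7 and 6 of them. The 8 ILC2 genes, which include the T cell genes Gata3 and Rora, summed to 3153, 3050, 2783 and 1767 CPM, with UMIs of 7, 7, 8 and 7 of them. The part of other cells' RNA in the differences was not tested. Cells with 3 or more markers of a B, myeloid, dendritic or non-leukocyte list, 137, 114, 270 and 201 cells with T cell receptor genes, had been left out.

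The genes were next counted together in single cells. After thinning, 2 or more of them were found in 10.8% of CD8 cells of the untreated library (8.12 to 13.9%), 23.9% of the STING library (18.0 to 30.7%), 29.1% of the LTbR library (25.5 to 32.8%) and 29.0% of the combination (25.2 to 33.0%). The interval of the untreated library lay below those of the other 3, which overlapped. At least 4 genes were found in 0.844, 4.79, 4.04 and 6.09% of CD8 cells. For CD4 cells the shares with 2 or more genes were 21.6, 38.7, 37.7 and 38.3%. NK cells had 8.03 to 12.4%, macrophages and monocytes 0.940 to 3.39% and neutrophils 0.182 to 1.19%.

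**Figure D4:**
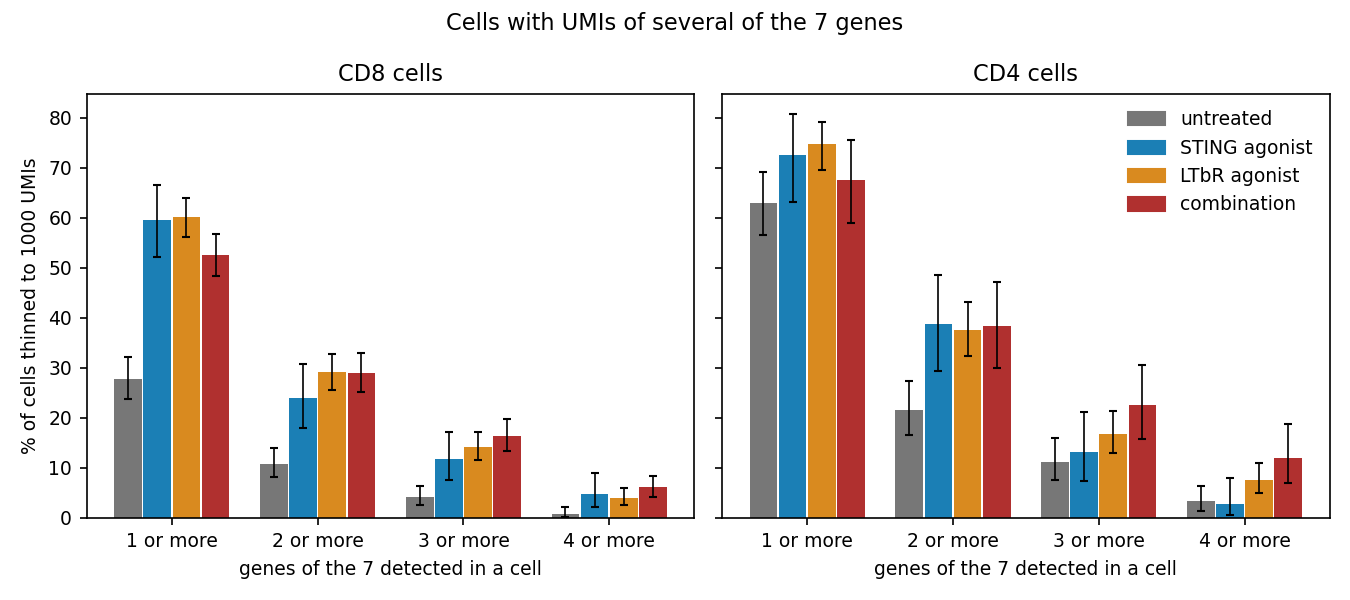
Share of CD8 cells (left) and CD4 cells (right) with UMIs of 1, 2, 3 or 4 or more of the 7 genes after each cell was thinned to 1000 UMIs, by library, with exact Clopper-Pearson 95% intervals. The untreated CD8 bar is the lowest of the 4 at every number of genes, at 10.8% against 23.9 to 29.1% for 2 or more.

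Pairs of the genes were then compared between cells of 1 library, which share their depth after thinning. In CD8 cells, 14 of the 21 pairs were such that the second gene was found in a larger share of the cells with the first than of those without it in 4 of 4 libraries. In CD4 cells 8 of the 21 were such pairs, all among the 10 pairs for which both genes had positive cells in every library. Igfbp4 with Dapl1 was such a pair in 1 of 4 CD8 libraries, and Il7r with Igfbp4 in 0 of 4 CD4 libraries. No share over other gene pairs was computed, so these counts have no background and nothing further is read from them. In untreated CD8 cells, Lef1 was found in 40% of Tcf7-positive and 5.92% of Tcf7-negative cells. The same shares were 28.9 and 11.3% in the STING library, 36.7 and 17.8% in the LTbR library and 56.8 and 13.9% in the combination. S1pr1, the KLF2 target, went with Klf2 in the same way, since Klf2 was found in 21.4, 26.3, 30.8 and 39.5% of S1pr1-positive CD8 cells and in 4.78, 11.8, 14.3 and 12.5% of the others. Among CD4 cells, Klf2 was found in 17.6, 30, 46.2 and 50% of S1pr1-positive and 9.18, 18.8, 13.5 and 8.85% of S1pr1-negative cells. Across the 56 sums of a class in a library, the log2 levels of Tcf7 and Lef1 had a Pearson r of 0.86, while those of Tcf7 and Klf2 had 0.14. These sums share libraries and depth, and CD4 cells without Foxp3 also enter the sums of all CD4 cells. The r values are given as a description.

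CD8 cells with 2 or more of the genes (51, 45, 180 and 157 cells) were set against CD8 cells with none (342, 76, 247 and 257 cells), to describe which other genes went with them, all cells being thinned to 1000 UMIs. Of 13 other genes of the naive and quiescence programme with 50 or more UMIs, 10 were higher in 4 of 4 libraries, against a background of 14.6% of 4738 genes. Ccr7, the chemokine receptor with which T cells enter lymph nodes, had log2 ratios of 0.51, 0.88, 1.69 and 2.0, and Satb1, a chromatin organizer of T cells, had 2.79, 0.97, 2.30 and 3.20. Foxo1, the forkhead factor upstream of Klf2 and Il7r, was lower in the STING library, at -0.99, and Cd27, a costimulatory receptor, was lower in all 4 by small amounts, at -0.06 to -0.27. Il6ra, the interleukin-6 receptor, was higher in the 3 libraries where it was found and had no UMI in either set of cells of the STING library.

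All 8 exhaustion genes were lower in 4 of 4 libraries, against a background of 21.9%. Pdcd1, which encodes PD-1, had log2 ratios of -4.65, -1.84, -3.98 and -3.93, and Lag3, another inhibitory receptor, had -3.53, -3.93, -5.20 and -4.97. Tox, the factor that sets up the exhausted state, had -2.44, -1.98, -1.66 and -2.08. Of 10 effector genes, 8 were lower in all 4 libraries, among them Prf1, which encodes perforin, at -3.49 to -4.59, and Ifng at -2.97 to -4.60. The exceptions were Gzma, at 1.95, -0.17, -1.71 and -1.98, and Gzmk, at 118, 111, 16.7 and 0 CPM in cells with 2 or more genes against 102, 78.9, 130 and 81.7 CPM in cells with none. Both encode granzymes, and Gzmk rested on 14 UMIs in cells with 2 or more genes and 94 in cells with none. The memory genes divided, since Slamf6 (4.82, 1.60, 2.04 and 3.03) and Ly6c2 (1.5 to 2.87) were higher in 4 of 4 libraries while Cd44, Il2rb and Xcl1 were lower. Cycling cells were 15.7, 13.3, 5.56 and 10.2% of the cells with 2 or more genes and 45.9, 44.7, 37.7 and 32.7% of those with none. Without cycling cells the counts were 10 of 13 naive genes higher, 8 of 8 exhaustion genes lower and 8 of 10 effector genes lower.

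**Figure D5:**
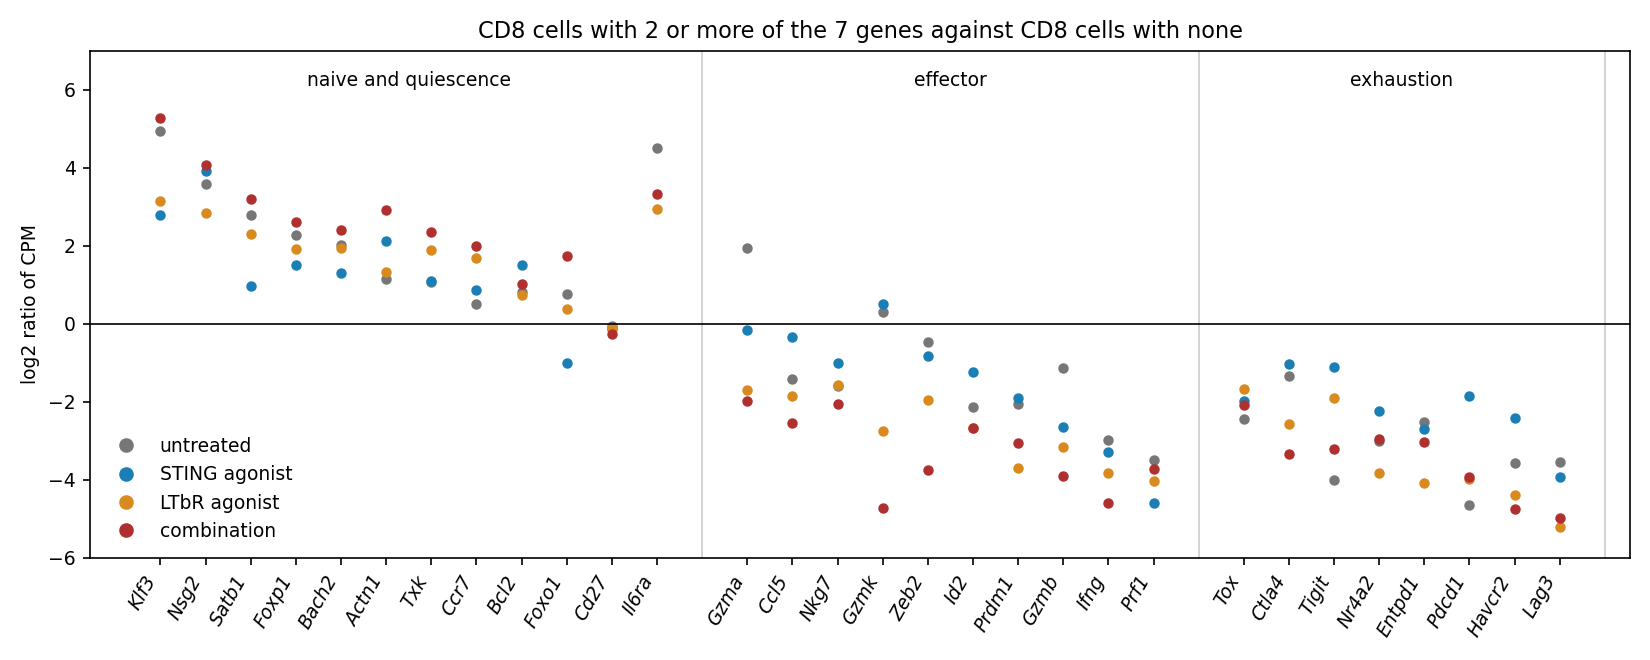
Log2 ratio of CPM in CD8 cells with 2 or more of the 7 genes to that in CD8 cells with none, for the naive and quiescence, effector and exhaustion genes shown, with 1 point for each library and 0.5 UMI added to each sum. Il6ra has no point for the STING library, where it had no UMI. Naive genes lie above 0 except Cd27 (-0.06 to -0.27) and Foxo1 in the STING library (-0.99), and the exhaustion genes all lie below 0, from -1.03 for Ctla4 to -5.20 for Lag3.

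By the weakest of the 4 library ratios, the genes that stood highest in CD8 cells with 2 or more of the 7 were Treml2, Sidt1, Nsg2, Fam241a and Klf3, a KLF family repressor. Over the 4 libraries Sidt1 had 383 UMIs in these cells and 91 in cells with none, and Klf3 had 99 and 12. The lowest were Ccl3, an inflammatory chemokine (7 and 849 UMIs), Gzmf, a granzyme (0 and 181 UMIs), Klrh1, Myo10 and Spp1. In all, 80 of 4738 genes were at least 2-fold higher and 176 at least 2-fold lower in 4 of 4 libraries (1.69 and 3.71%). Tcf7 and Pdcd1 were rarely found in 1 cell. After thinning, Pdcd1 was found in 0, 5, 3 and 4 of the 35, 38, 147 and 125 Tcf7-positive CD8 cells, which is 0, 13.2, 2.04 and 3.20%, against 41.7, 42.7, 29.0 and 39.6% of the other CD8 cells.

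In CD4 cells the same comparison rested on fewer cells (52, 41, 125 and 51 against 89, 29, 84 and 43). Of 9 naive genes 5 were higher in 4 of 4 libraries (background 16.4%), among them Il6ra, with 52 UMIs in the cells with 2 or more genes and 4 in those with none, and Klf3, with 55 and 6. Of 6 exhaustion genes 4 were lower in all libraries (background 16.3%), and of 7 effector genes 3. Csf2, which encodes the cytokine GM-CSF, had 1 UMI against 54, and Ccl4, a chemokine, 7 against 284. By the rule for the weakest library, Il6ra, Klf3, Aff3, Marchf3 and Thada stood highest and Csf2, Dlg2, Ccl4, Ece1 and Hilpda lowest, and 1.09 and 1.82% of 2196 genes were at least 2-fold higher or lower in 4 of 4 libraries. Foxp3+ cells were 7.69, 12.2, 8 and 5.88% of the CD4 cells with 2 or more genes and 44.9, 51.7, 19 and 11.6% of those with none. Without Foxp3+ cells, 7 of 9 naive genes were higher and 2 of 4 exhaustion genes lower in 4 of 4 libraries, and without cycling cells 4 of 8 and 2 of 4.

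The other genes of these programmes were then read across the treatment groups, with the 7 genes set aside. In CD8 cells, 6 of 13 naive and quiescence genes were at least 2-fold above untreated in the STING library, 8 of 14 in the LTbR library and 8 of 14 in the combination (background 1.8, 2.61 and 2.11%), and none was 2-fold lower. Their median log2 ratios were 0.81, 1.10 and 1.21, against -0.06, 0.00 and -0.04 for all genes. Ccr7 stood at 49.4, 218, 107 and 178 CPM, so the STING library was the highest. Klf3 stood at 24.5, 116, 70.5 and 88.9 CPM, and Satb1 at 287, 604, 820 and 740 CPM. Il6ra was at 12.6, 14.6, 47.1 and 59.1 CPM, the pattern also seen for Igfbp4 and Dapl1.

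Counts of the other lists in CD8 cells stand against the same shares of all genes, which were 1.8, 2.61 and 2.11% 2-fold higher and 2.34, 1.2 and 1.29% 2-fold lower. Of the 8 exhaustion genes in CD8 cells, 1, Tox, was 2-fold lower, at log2 ratios of -1.49 (-1.62 to -1.37) with the STING agonist and -1.05 (-1.13 to -0.97) with the LTbR agonist, but not with the combination, at -0.64 (-0.72 to -0.55). Pdcd1 had log2 ratios of -0.23, -0.81 and -0.40. Of 10 effector genes, 1, Gzma, was 2-fold higher in all 3 treated libraries, at 72.0, 492, 273 and 282 CPM. Of 7 memory and stem-like genes, 2, 2 and 1 were 2-fold higher and none 2-fold lower, at medians of 0.61, 0.31 and 0.22. Slamf6, the stem-like marker, stood at 28.2, 74.0, 58.8 and 57.1 CPM. Il2rb, the interleukin-2 receptor β chain, had log2 ratios of -0.43, -0.21 and -0.24, Xcl1, a chemokine, 0.61, -0.54 and -0.90, and Eomes, a T-box factor, -0.10, 0.24 and 0.22. Axin2, a target of TCF and LEF factors with β-catenin, was 2-fold higher with the LTbR agonist, at 14.0 against 5.20 CPM (log2 ratio 1.39, 0.50 to 2.43), while the STING library, at 13.6 CPM on 14 UMIs, was under the limit for counting. The combination, at 6.64 CPM on 10 UMIs (log2 ratio 0.37, -0.98 to 1.63), was also under the limit, and its interval held the LTbR value. Of the other listed targets, Myc was lower in all 3 treated libraries, at -0.69 (-1.16 to -0.27), -0.46 (-0.76 to -0.17) and -0.56 (-0.94 to -0.20). Nkd1 was under the limit in each. Among genes that tissue dissociation can induce, Fos had log2 ratios of 1.70, 1.53 and 1.42. Jun stood at 126 and 139 against 53.1 CPM with the STING agonist and the combination, and Hspa1b at 26.4 against 12.6 CPM with the LTbR agonist. In all, 2 of 6, 2 of 7 and 2 of 7 such genes were 2-fold higher, at medians of 0.78, 0.82 and 0.54, and their part in the other differences was not tested. Of 4 residence genes, 1, 0 and 0 were 2-fold higher and 0, 0 and 1 lower, at medians of -0.49, 0.26 and -0.35. These were Cd69, which opposes S1PR1 at the cell surface, at 124, 319, 221 and 178 CPM, and Itgae, which encodes the integrin CD103, at 26.0, 14.6, 39.6 and 11.9 CPM.

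In CD4 cells, 0 of 12 naive genes were 2-fold higher in the STING library, 5 of 14 in the LTbR library and 4 of 14 in the combination (background 1.04, 1.48 and 1.61%), and 1, 0 and 0 were lower (2.4, 1.13 and 2.31%). Their median log2 ratios were 0.28, 0.59 and 0.80, against -0.06, 0.02 and -0.0045 for all genes. Bach2, a repressor that holds T cells in a resting state, had log2 ratios of 1.29 (1.03 to 1.55) and 1.57 (1.26 to 1.88) in the LTbR and combination libraries, and Foxp1, a quiescence factor, 1.02 and 1.12. Nsg2 was at 1.29 and 2.20 and Actn1 at 1.48 and 1.92 in the same libraries, and Bcl2, a survival factor, at 1.13 with the LTbR agonist. Ccr7 went the other way in the STING library, at 45.5 CPM against 155 CPM in untreated CD4 cells (log2 ratio -1.74, -2.52 to -1.09), and stood at 262 CPM in the combination. None of 8 exhaustion genes was 2-fold higher or lower in any of the 3. Of 9, 11 and 8 effector genes, 1, 1 and 1 were 2-fold higher and 3, 1 and 2 lower. Ccl5, an effector chemokine, was lower with the STING agonist and with the combination, at 610, 88.8, 356 and 95.9 CPM, and Gzmb was at 265, 690, 350 and 171 CPM. Nkg7, a granule protein gene, was at 207 against 424 CPM with the STING agonist, and Klrg1, a receptor of effector cells, at 46.5 against 156 CPM with the combination. Ifng had log2 ratios of -1.07 with the STING agonist and 1.35 with the combination, and with the LTbR agonist Gzmk had 1.16 and Gzma -1.05. Of the other lists, Cd69 was 2-fold higher with the STING agonist (1.13), Slamf6 with the combination (1.29) and Egr1, a dissociation gene, with the LTbR agonist (1.03), and Itgae (-1.40) and Xcl1 (-2.25) were lower with the LTbR agonist. Xcl1 had 44, 1, 11 and 1 UMIs in CD4 cells, so its comparisons for the STING agonist and the combination were under the limit for counting.

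Genes whose levels ran most like those of each member over the 56 class-by-library sums are named as a description. For Tcf7 these were Thy1 (Pearson r 0.95), H2-Q6 (0.93) and Sh2d1a (0.90), and for Lef1 they were Bicdl1 (0.96), Sidt1 (0.96) and Ehd3 (0.94). S1pr1 ran most like Ubash3a (0.87), Gimap3 (0.86) and Gimap7 (0.85), and Il7r most like Atp10d (0.86), Fyb (0.83) and Akap13 (0.83). Klf2 had no close match, with Tnfrsf26 the nearest at 0.71, and Igfbp4 ran most like Sparc (0.73), a gene of the non-leukocyte list. Dapl1 ran most like Tff1 (0.88), Ccl1 (0.85) and Lcn4 (0.84), on few UMIs. The sums share libraries and some CD4 cells and differ in depth, and no p-value applies.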

How the data were processed

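Live CD45+ tumour cells of 4 groups, 1 library each, were profiled with a 5′ single-cell kit. The authors deposited UMI counts per gene and cell, and no normalized values were used. Submitters' processing notes name mm10 and Cell Ranger 7.1.0, whereas the file headers name Cell Ranger 8.0.1. The 7 genes and all gene lists were chosen with earlier results of these data known. Cells with 300 to 5000 genes and at most 6% mitochondrial UMIs were kept, as in the study's methods. Cells with 2 or more of the 5 T cell receptor genes and 3 or more markers of a B, myeloid, dendritic or non-leukocyte list were left out as possible doublets, because the automatic Scrublet threshold marked 0, 0, 1 and 0 cells. Scrublet scores with a set share of 0.4% per 1000 cells were an alternative. Other cells took the marker list with the largest share of genes found, of at least 2.

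Deposited counts were summed over cells of a class and divided by their total (CPM). Ratios used 0.5 added UMI, and calls needed 50 UMIs over both libraries, 2-fold and an interval without 0. Intervals were exact Poisson for CPM, exact binomial for ratios and Clopper-Pearson for shares, at 95%, and cover counting error only. Groups of 1 library allow no test, so no p-values appear. Cells were thinned to 1000 UMIs (seed 7) for shares, leaving out 3, 3, 9 and 46 CD8 and 2, 0, 9 and 10 CD4 cells. Cells with 2 or more of the 7 genes were compared with cells with none on thinned counts, and a gene counted as higher or lower in a library by its CPM. Named beside the 7 were listed genes at least 2-fold from untreated, 1 of which is counted but not reported here by name, other listed genes chosen after their values were seen, the 5 genes highest and lowest by the weakest of 4 library ratios, and the 3 with the highest Pearson r of log2(CPM + 1) over class sums of 20 or more cells, among genes with 200 or more UMIs. Gene positions came from GENCODE M21. On simulated counts with 200 genes changed 4-fold, 99 to 100% of these were called by ratio alone over the comparisons with untreated. In the combination against untreated CD8 comparison (8176 genes) it was 100%. Of unchanged genes, 0.187 to 0.584% were called. The simulated counts held counting error only, so nothing is read from them on variation between cells, mice or libraries. Python 3.11.15, numpy 2.4.6, scipy 1.17.1, pandas 2.3.3, scanpy 1.11.5 and matplotlib 3.10.9 were used.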

Additional observations from a re-analysis of the deposited data

How the results depend on the processing

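No paired analysis was possible because each group is 1 library and the labels give no replicate numbers. In CD8 cells, Tcf7, Lef1, Il7r, S1pr1 and Klf2 kept their sign against untreated under all 13 other settings run, over which the log2 ratio of the 7 genes summed ranged from 1.19 to 1.42 (STING), 1.25 to 1.49 (LTbR) and 1.22 to 1.60 (combination). Values that moved beyond their interval, or changed sign, follow for that sum unless a gene, a share or a number of genes at 2-fold or more is named. The causes were not tested.

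Without Il7r the CD8 ratios to untreated were 1.87 (LTbR) and 1.99 (combination), the CD4 ratios were 0.58 (STING), 1.08 (LTbR) and 1.19 (combination), and the combination differed from the STING library by 0.62 in CD8 and 0.61 in CD4 cells, the latter from -0.08 with Il7r. Without cycling cells the CD8 ratios to untreated were 1.19 (STING), 1.25 (LTbR) and 1.22 (combination), the combination differed from the LTbR library by -0.028 and from the STING library by 0.031 in CD8 and 0.087 in CD4 cells, and the CD8 shares with 2 or more genes were 15.0% (untreated), 35.6% (LTbR) and 34.0% (combination). Without Foxp3+ cells the CD4 ratios were 0.30 (LTbR), 0.40 (combination) and -0.34 (combination against STING, with 1 gene at 2-fold), and the untreated CD4 share was 30.8%. With no cells left out as mixed, the combination stood at 1.37 in CD8 cells against untreated, -0.010 in CD8 and -0.017 in CD4 cells against LTbR and -0.30 in CD4 cells against STING (1 gene at 2-fold), and 2 genes were at 2-fold in STING CD4 cells. With Scrublet in place of that rule, these were 1.44, 0.024 (CD8 against LTbR) and -0.36 (1 gene), and STING CD4 cells stood at 0.90 with 2 genes. With 3 or more T cell receptor genes required, the combination stood at 1.44 in CD8 cells, at -0.033 against LTbR and at 0.095 against STING, its CD8 share was 24.5%, and in CD4 cells 1 gene was at 2-fold against untreated and 1 against STING.

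With every cell weighted equally, CD8 ratios were 1.32 (LTbR), 1.31 (combination), -0.014 (combination against LTbR) and 0.048 (combination against STING). On sums of cells thinned to 1000 UMIs they were 1.32 (LTbR), 1.35 (combination) and 0.0010 (combination against STING, 0 genes at 2-fold, S1pr1 at -0.41), and in CD4 cells 0.40 (LTbR, 1 gene) and 0.62 (STING), with 1 gene at 2-fold in the combination against untreated and 1 higher and 1 lower against STING. With all deposited cells the LTbR CD4 ratio was 0.67. With cells that had Cd4 and Cd8 UMIs in both classes, CD8 ratios were 1.34 (LTbR) and 1.45 (combination). With a limit of 200 UMIs, genes at 2-fold in the combination were 1 in CD4 cells against untreated, 1 against STING and 0 against LTbR, and 0 in CD8 cells against STING. Without the cell with most UMIs of each gene, CD4 counts were 1 against untreated and 0 against STING. With no UMI added, the CD4 count against STING was 1, since Igfbp4 has no ratio there.

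The share with 2 or more genes depends on depth by construction. Not thinned it was 20.8, 49.7, 51.6 and 41.0% of CD8 and 45.7, 67.9, 65.1 and 53.1% of CD4 cells. Thinned to 2000 UMIs it was 15.3, 36.7, 46.2 and 41.9% of CD8 and 36.2, 50, 56.0 and 48.7% of CD4 cells. The CD8 order of the treated libraries differs between these settings, while untreated is the lowest in each. The added counts of naive, effector and exhaustion genes without cycling or Foxp3+ cells, and the sums without Il7r, were chosen after seeing the data. Igfbp4 and Dapl1 had fewer than 50 UMIs in some comparisons.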

Other observations

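Tcf7 was also found in mature dendritic cells (154, 113, 181 and 150 cells), at 116, 63.3, 43.7 and 67.2 CPM, where the untreated library was the highest, while Lef1 was at 0 to 1.96 CPM in the same cells. In B and plasma cells, which numbered 51, 41, 388 and 582, Klf2 stood at 54.1, 87.6, 219 and 137 CPM and S1pr1 at 5.54, 3.51, 28.3 and 14.6 CPM, with the LTbR library highest in both. The class pools B and plasma cells, and its median UMIs per cell were 15440, 22987, 9293 and 4894, so its make-up may differ between libraries, which was not tested.

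Dapl1 had 0, 0, 1 and 29 UMIs in the 777, 1117, 1368 and 2358 cells that no marker list could place, so nearly all of its UMIs in unplaced cells came from the combination.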
